A study of Mus musculus with 20 samples.

Results

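Respiratory complex I, the NADH:ubiquinone oxidoreductase of the mitochondrial inner membrane, was followed at the RNA level in mouse prefrontal cortex after lipopolysaccharide (LPS) and in hippocampus after nicotine. The genes were chosen by symbol: every gene named Ndufa, Ndufb, Ndufc, Ndufs or Ndufv plus a number was taken, and assembly factors and pseudogenes with a -ps suffix were not. The rule found 40 genes among the 55487 rows of the cortex table and the same number among the 57180 rows of the hippocampus table. Of these, 35 are complex I subunits, 7 of them core and 28 accessory. Counts of core subunits below cover these 7 nuclear-encoded genes, and the mitochondrially encoded core subunits are counted apart. Ndufa4 and Ndufa4l2 share the name but are not counted as complex I subunits here, since Ndufa4 has been reassigned to cytochrome c oxidase and Ndufa4l2 is its paralog. Ndufa11b, Ndufb4c and Ndufs6b are annotated as processed pseudogenes in GENCODE vM21.

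Poly(A)-selected RNA was sequenced from 8 cortex and 12 hippocampus libraries of wild-type C57/BL6 mice aged 2 to 6 months. In the cortex experiment, male mice had received LPS at 5 mg/kg intraperitoneally (n = 4) or 0.9% saline (n = 4), and the prefrontal cortex was taken 24 hours later. In the hippocampus experiment, mice had received nicotine at 0.2 mg/kg (6 libraries) or saline at 0.9% (6 libraries), again 24 hours before dissection; the labels give neither their sex nor the route. Tissue and batch label coincide, so no test set the tissues against each other. The labels call the samples biological replicates and do not say whether animals were pooled.

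The sample titles and the count-table column names contradict each other in 4 of the 8 cortex records, Samples 2L, 4L, 6L and 8L. Groups were taken from the column names, which put Samples 2L, 4L, 5L and 7L with LPS and Samples 1L, 3L, 6L and 8L with saline. Lcn2, which encodes lipocalin 2, an acute-phase protein, had 254 to 367 CPM (counts scaled to library size) in the libraries with LPS in the column name, against 0.676 to 13.5 CPM in those with Sal. Sample 8L alone made the top of the saline range, with Samples 1L, 3L and 6L at 1.39, 0.916 and 0.676 CPM. Grouping by title left 0 of 36 tested members past the threshold in edgeR, and 0 of all 17760 genes. With the 4 libraries on which both labels agree (5L and 7L with LPS, 1L and 3L with saline), 5 members remained among those called lower. The share of all genes lower in that fit is not set beside this count, which is a description only.

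Complex I takes electrons from NADH at the tip of its matrix arm, passes them along iron-sulfur clusters to ubiquinone, and couples this to proton pumping by its membrane arm. Core subunits carry the catalysis and have counterparts in bacteria. In mammals some are encoded by nuclear genes and the rest, the mt-Nd proteins, by mitochondrial DNA. Accessory subunits surround the core, and many are needed for the enzyme to assemble or stay stable. The text below goes through the NADH-binding (N) module and the quinone-binding (Q) module of the matrix arm, then the proximal and distal parts of the membrane arm. Neurons depend heavily on this enzyme for ATP, and loss of single accessory subunits such as Ndufs4 causes brain disease in mice and people.

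RefSeq windows from 250 bases before to 50 bases after the gene start (build GRCm38.p6) were available for 31 of the 36 members tested in cortex, 30 of them subunits. The windows of the subunits with the largest falls after LPS, Ndufb2 and Ndufc1, are shown first, and then those of the subunits nearest to no change for which a window was available, Ndufv3 and Ndufv1. Each is printed 5′ to 3′ on the strand of its gene: Ndufb2 at chr6:39592315-39592614 (plus strand), Ndufc1 at chr3:51408906-51409205 (minus strand), Ndufv3 at chr17:31519865-31520164 (plus strand) and Ndufv1 at chr19:4012706-4013005 (minus strand). Capitals mark letters that match a searched motif on either strand.
Ndufb2: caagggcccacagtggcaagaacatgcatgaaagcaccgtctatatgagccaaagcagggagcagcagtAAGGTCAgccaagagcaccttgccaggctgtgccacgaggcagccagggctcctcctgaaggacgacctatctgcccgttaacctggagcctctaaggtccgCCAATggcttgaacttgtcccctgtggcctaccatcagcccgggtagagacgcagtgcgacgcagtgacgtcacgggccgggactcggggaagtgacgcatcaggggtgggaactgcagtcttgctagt
Ndufc1: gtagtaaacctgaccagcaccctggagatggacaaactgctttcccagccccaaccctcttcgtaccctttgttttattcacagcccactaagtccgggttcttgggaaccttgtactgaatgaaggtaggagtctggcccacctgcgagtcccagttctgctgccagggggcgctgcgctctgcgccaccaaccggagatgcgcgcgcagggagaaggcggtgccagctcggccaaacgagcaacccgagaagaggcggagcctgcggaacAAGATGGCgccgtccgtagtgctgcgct
Ndufv3: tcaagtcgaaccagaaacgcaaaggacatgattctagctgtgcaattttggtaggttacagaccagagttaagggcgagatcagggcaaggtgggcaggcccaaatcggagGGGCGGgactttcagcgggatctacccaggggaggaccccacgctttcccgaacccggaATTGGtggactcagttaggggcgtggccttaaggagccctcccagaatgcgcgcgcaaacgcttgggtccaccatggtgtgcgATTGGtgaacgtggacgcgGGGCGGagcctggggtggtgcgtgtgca
Ndufv1: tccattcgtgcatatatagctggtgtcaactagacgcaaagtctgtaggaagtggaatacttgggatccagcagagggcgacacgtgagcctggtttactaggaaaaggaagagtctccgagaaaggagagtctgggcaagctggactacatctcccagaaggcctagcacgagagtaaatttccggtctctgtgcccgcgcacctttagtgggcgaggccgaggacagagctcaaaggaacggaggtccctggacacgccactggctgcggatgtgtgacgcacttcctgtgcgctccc

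The motifs searched on both strands were AAGATGGC (YY1), CGCATGCG (NRF1), CCGGAAG (ETS family), AAGGTCA (ERR), GGGCGG (SP1) and CCAAT; none of the printed matches overlap. The Ndufb2 window held AAGGTCA at base 70 and CCAAT at base 172, and the Ndufc1 window held AAGATGGC at base 273, counted from 1 at the 5′ end. Ndufv3 held GGGCGG at bases 112 and 273 and CCAAT, read on the opposite strand, at bases 171 and 254, while Ndufv1 held none of the 6. AAGATGGC stood in 7 of the 30 subunit windows (23.3%), against 2.88% of all 27025 windows; 3 of the 7 belonged to the 10 called-lower genes with a window and 4 to the 20 others. The other shares were 6.67% of subunit windows against 1.91% of all windows for CGCATGCG, 13.3% against 9.12% for CCGGAAG, 10.0% against 4.66% for AAGGTCA, 43.3% against 35.9% for GGGCGG and 30.0% against 37.9% for CCAAT. A match describes letters in a window and is not evidence of a bound site.

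Depth ran from 36371084 to 46106526 counts per cortex library and from 51969343 to 68196280 per hippocampus library, and the 35 subunits together took 0.235% to 0.290% of the cortex counts. In the saline cortex, levels per kilobase of transcript were compared using the shortest of the best-tagged transcripts of each gene. They spanned 28.8 CPM per kilobase for Ndufs4 to 186 CPM per kilobase for Ndufb10 among the 34 tested subunits, a 6.43-fold range. With the longest tagged transcript the range was 45.8-fold, since Ndufb2 was then at 4.05 CPM per kilobase. Ndufa4 was higher, at 362 CPM per kilobase, and Ndufa4l2, known as a hypoxia-induced gene, was at 2.20 CPM per kilobase. In bulk tissue, fewer cells of a type and less RNA per cell cannot be told apart.

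After LPS, 11 of the 27 tested accessory subunits were lower in the cortex and 16 did not pass the test. None of the 7 nuclear-encoded core subunits passed it, and the mitochondrially encoded ones are given further below. Of 36 members tested with edgeR's quasi-likelihood test (Benjamini-Hochberg adjusted p under 0.05 over all 17760 genes), 11 (30.6%) were lower and 0 were higher. Over all genes, 19.7% were lower and 21.5% were higher. The 11 were Ndufb2, Ndufc1, Ndufa7, Ndufs5, Ndufa3, Ndufs4, Ndufa2, Ndufa6, Ndufa1, Ndufb3 and Ndufc2, all accessory, or 40.7% of the accessory subunits tested, against 0 of 7 core subunits. Among protein-coding genes under 1000 bases at 10 CPM or more, the length class of most accessory subunits, 32.9% were lower. At an unadjusted p under 0.05, 1 core subunit was lower and 0 were higher, and DESeq2 and limma-voom also called 0 core subunits. Ndufs8 was called lower without LPS Sample 7L (edgeR adjusted p = 0.0199) and without saline Sample 8L (edgeR adjusted p = 0.0437). The median log2 change was -0.18 over accessory subunits, 0.02 over core subunits and 0.01 over all tested genes, and it was negative for 26 of the 27 accessory and 3 of the 7 core subunits. All LPS libraries lay below all saline libraries for 9 members, and all lay above for 0; over all genes these shares were 17.9% and 19.2%.

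**Figure D1:**
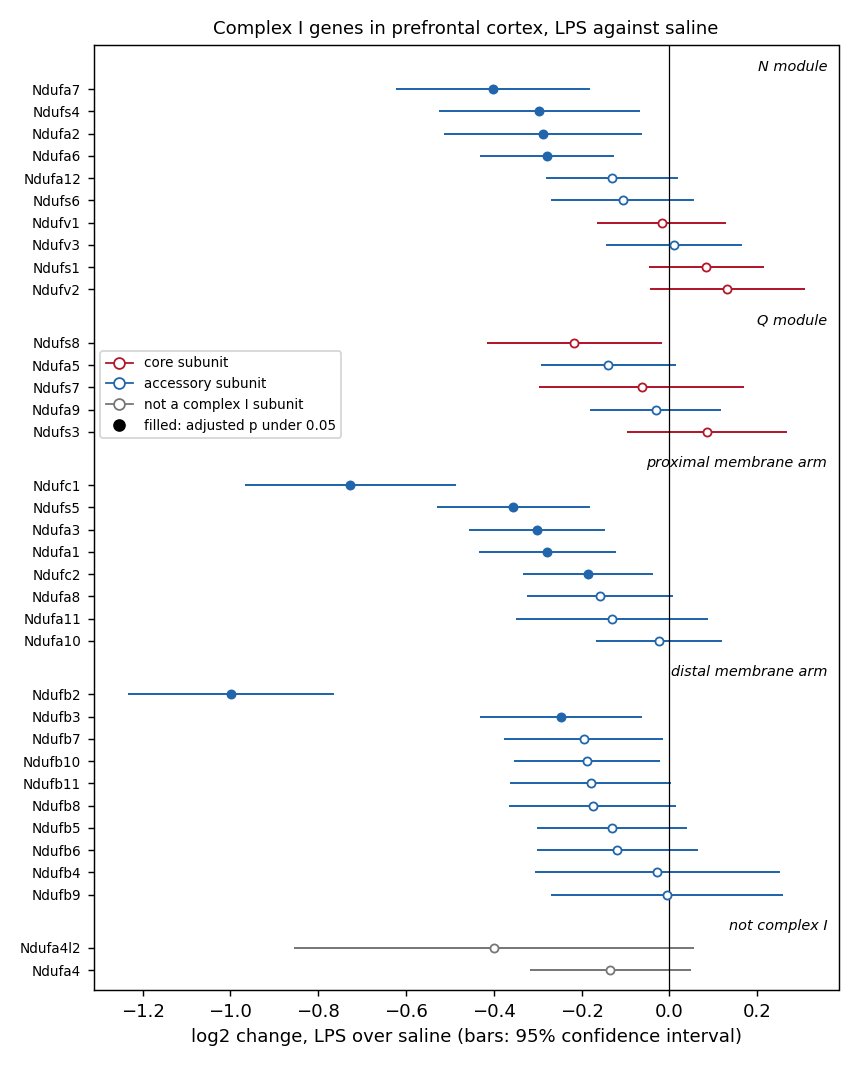
Log2 change after LPS over saline in prefrontal cortex for 35 of the 36 tested genes, ordered within each structural group; points are edgeR estimates, bars their 95% confidence intervals (n = 4 each), and filled points have an adjusted p under 0.05. All filled points are accessory subunits (blue), with Ndufb2 at -1.0 and Ndufc1 at -0.73 farthest to the left, and the 6 core subunits shown (red) lie between -0.22 and 0.13.

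In the N module, which binds NADH, 4 of 10 subunits fell, all accessory, beside 19.7% of all tested genes. Among protein-coding genes under 1000 bases at 10 CPM or more, 32.9% fell. Ndufa7, an accessory subunit of the matrix arm, had 35.7, 30.7, 33.1 and 42.7 CPM in LPS Samples 2L, 4L, 5L and 7L, against 46.3, 48.3, 48.8 and 44.5 CPM in saline Samples 1L, 3L, 6L and 8L. The groups did not overlap, and Sample 7L was the highest of the LPS libraries. The log2 change of Ndufa7 was -0.40 ± 0.10 (SE; edgeR adjusted p = 0.00825). Ndufs4, whose deletion in mice is a model of Leigh syndrome, had 39.1, 34.6, 38.2 and 47.6 CPM with LPS, against 47.3, 55.1, 48.3 and 45.3 CPM with saline. Here Sample 7L lay within the saline range, and the change of -0.30 ± 0.10 had an edgeR adjusted p of 0.0401. The call was lost without any of Samples 1L, 2L, 3L, 4L, 5L or 6L (adjusted p = 0.0506 to 0.114). Ndufa2, which has a thioredoxin-like fold, averaged 48.6 ± 7.92 CPM with LPS and 59.3 ± 1.27 CPM with saline (SD, n = 4 each), and again only Sample 7L, at 59.3 CPM, reached the saline values (adjusted p = 0.0425, edgeR). This call was lost without any of Samples 1L, 3L, 4L, 5L, 6L or 8L (adjusted p = 0.0563 to 0.117). Ndufa6, an LYR-motif protein that holds the acyl carrier, averaged 57.9 ± 4.14 CPM with LPS and 70.2 ± 1.48 CPM with saline without overlap (adjusted p = 0.00827, edgeR).

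The core subunits of the N module did not pass the test. Ndufs1, the large iron-sulfur subunit, had 144, 145, 149 and 148 CPM in the LPS libraries, against 135, 146, 133 and 138 CPM in the saline libraries. Ndufv1, which carries the flavin and the NADH site, had 143, 147, 147 and 165 CPM with LPS, against 154, 159.9, 147 and 149 CPM with saline. Ndufv2, an iron-sulfur subunit beside it, had 123, 128, 140.2 and 143 CPM with LPS, against 117, 139, 116 and 117 CPM with saline. For all of these the groups overlapped, and saline Sample 3L set the top of the saline range. Their 95% intervals on the log2 scale were -0.05 to 0.21 for Ndufs1, -0.17 to 0.13 for Ndufv1 and -0.04 to 0.31 for Ndufv2. Among the accessory subunits of the module, Ndufv3 was at 0.01 (interval -0.14 to 0.16), Ndufs6, a zinc-binding subunit, at -0.11 and Ndufa12 at -0.13, with no call.

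**Figure D2:**
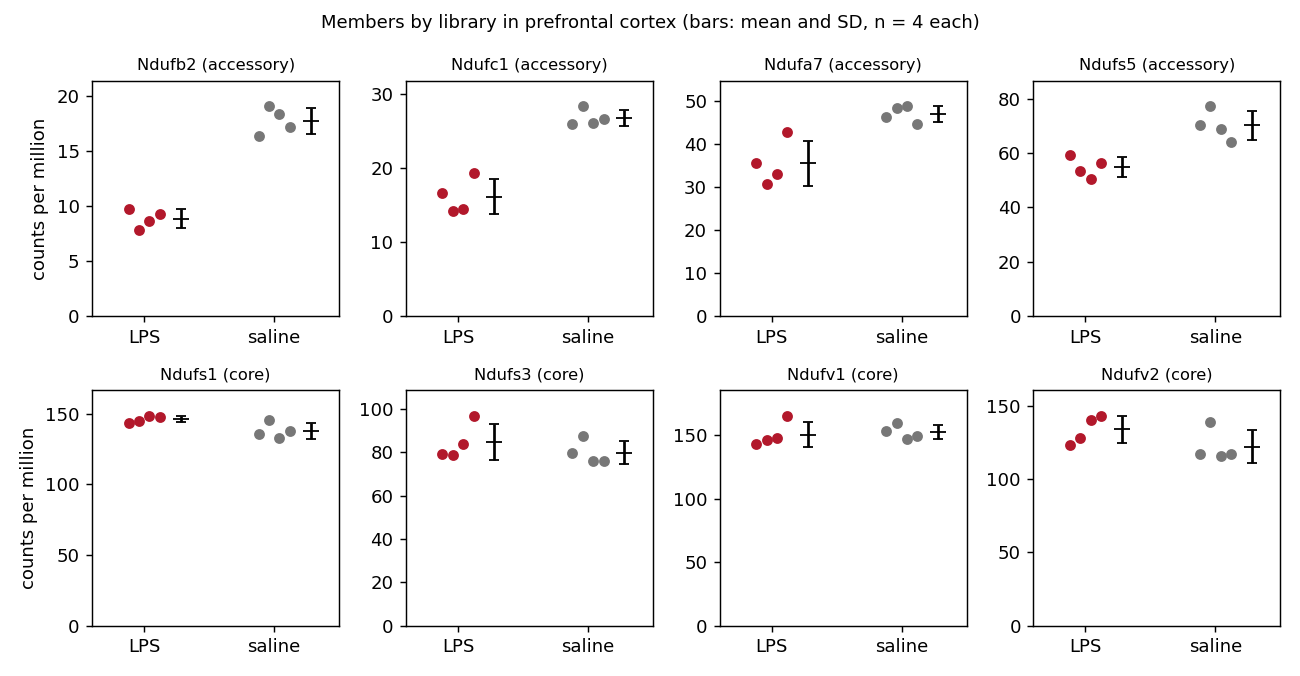
TMM-scaled CPM of 4 accessory (top) and 4 core (bottom) subunits in each prefrontal cortex library, LPS left and saline right; points are libraries, and bars give the mean and SD (n = 4 each). The accessory subunits shown are separated by treatment (Ndufb2 at 7.81 to 9.69 CPM with LPS and 16.4 to 19.0 CPM with saline), whereas the LPS and saline points of Ndufs1, Ndufs3, Ndufv1 and Ndufv2 overlap.

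No subunit of the Q module passed the threshold. Ndufs3, a core subunit of the module, averaged 84.7 ± 8.42 CPM with LPS and 79.8 ± 5.46 CPM with saline (SD, n = 4 each). Ndufs7, which holds the iron-sulfur cluster nearest to the quinone, had 58.2, 58.8, 61.3 and 80.4 CPM with LPS, against 74.7, 62.3, 67.9 and 65.3 CPM with saline. Sample 7L alone carried Ndufs7 above the saline range, while the other LPS libraries lay below all saline libraries. Ndufs8, an iron-sulfur core subunit, averaged 67.1 ± 7.52 CPM with LPS and 77.9 ± 6.34 CPM with saline and was the core subunit nearest to a call (log2 change -0.22 ± 0.09, edgeR adjusted p = 0.077). The accessory subunits Ndufa5 and Ndufa9 were at -0.14 and -0.03.

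In the proximal membrane arm, 5 of 8 tested subunits fell, and in all of these 5 the groups did not overlap. Over all tested genes 19.7% fell, and in 17.9% all LPS libraries lay below all saline libraries. Ndufc1, a small membrane subunit encoded at chr3:51404677-51408988, had 16.6, 14.1, 14.5 and 19.3 CPM with LPS, against 25.9, 28.3, 26.02 and 26.6 CPM with saline. Its log2 change was -0.73 ± 0.11 (edgeR adjusted p = 0.000428), which put LPS at 60.4% of the saline mean. Ndufs5, a cysteine-rich subunit on the intermembrane-space side, had 59.3, 53.4, 50.5 and 56.2 CPM with LPS, against 70.3, 77.2, 68.9 and 64.2 CPM with saline (log2 change -0.36 ± 0.08, edgeR adjusted p = 0.00434). Here Sample 7L was not the highest of the LPS libraries. Ndufa3, a small single-span subunit, varied little among the LPS libraries, at 43.7 ± 0.352 CPM with LPS and 53.8 ± 3.40 CPM with saline (adjusted p = 0.00571, edgeR). Ndufa1, an X-linked single-span subunit, averaged 49.9 ± 3.04 CPM with LPS and 60.5 ± 2.49 CPM with saline (adjusted p = 0.00921, edgeR). Ndufc2, which pairs with Ndufc1, averaged 58.4 ± 3.65 CPM with LPS and 66.46 ± 1.005 CPM with saline (adjusted p = 0.0453, edgeR). The call of Ndufc2 was lost without any of Samples 1L, 2L, 4L, 6L or 8L (adjusted p = 0.053 to 0.131). Ndufa8, Ndufa11 and Ndufa10 were at -0.16, -0.13 and -0.02 with no call.

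Ndufb2 had the largest change of any member. This small subunit of the distal membrane arm, encoded at chr6:39592574-39603382, had 9.69, 7.81, 8.64 and 9.31 CPM with LPS, against 16.4, 19.0, 18.3 and 17.2 CPM with saline. All LPS libraries lay well below all saline libraries, Sample 7L included, and the log2 change was -1.0 ± 0.11 (edgeR adjusted p = 5.15e-05), or 50.02% of the saline mean. Among the 10 distal subunits 20% were lower, against 19.7% of all tested genes, and only 1 other was called. Ndufb3 had 58.0, 58.9, 56.5 and 60.6 CPM with LPS, against 66.4, 81.5, 64.2 and 65.7 CPM with saline (adjusted p = 0.0342, edgeR). Saline Sample 3L stood apart for Ndufb3, and the call was lost without it (adjusted p = 0.0576), without Sample 4L (0.068) and without Sample 5L (0.0804). The uncalled distal subunits were Ndufb7 at -0.19, Ndufb10 at -0.19, Ndufb11 at -0.18, Ndufb8 at -0.17, Ndufb5 at -0.13, Ndufb6 at -0.12, Ndufb4 at -0.03 and Ndufb9, another LYR-motif protein, at -0.01. The interval of Ndufb9 was wide, at -0.27 to 0.26, with saline Sample 3L at 53.2 CPM and the other saline libraries at 36.6 to 39.2 CPM.

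Some members share exon bases with a neighbour, and whether the counting used strand is not given in the sources used here. Ndufb2 shares bases with Braf, Gm16272 and Gm42420: Braf had 164 to 185 CPM with LPS and 115 to 128 CPM with saline and rose (log2 change 0.53, edgeR adjusted p = 0.000149), Gm16272 fell (0.336 to 0.720 CPM with LPS, 0.761 to 1.18 CPM with saline), and Gm42420 rose. Ndufa2 shares bases with Tmco6, which fell (log2 change -0.70, adjusted p = 0.00954, edgeR), and Ndufa3 with Tfpt, which rose (log2 change 0.29, adjusted p = 0.0169, edgeR). The part of the overlaps in these members was not tested. Of the other called members, none shares exon bases with another gene in GENCODE vM21.

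Outside complex I, Ndufa4 averaged 149 ± 17.2 CPM with LPS and 164 ± 7.91 CPM with saline (log2 change -0.13, edgeR adjusted p = 0.223), and Ndufa4l2 averaged 1.55 ± 0.218 CPM with LPS and 2.05 ± 0.347 CPM with saline (log2 change -0.40 ± 0.21, edgeR adjusted p = 0.147). In cortex, 4 members were too low to test: Ndufa13, an accessory subunit also known as GRIM-19, and Ndufb4c were listed at 0 counts in all libraries, Ndufa11b had 0 to 2 counts and Ndufs6b 1 to 16 counts per library. Ndufb8 behaved differently between the tables, with 2364 to 3271 counts per cortex library and 0 to 3 counts per hippocampus library. Ndufa13 shares 375 exon bases with Tssk6, and Ndufb8 shares 134 with Gm20538. The annotation used for counting is not given in the sources used here, so these zeros describe the tables and not expression.

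The gap between accessory and core subunits was present in each LPS library. Relative to the saline mean, the accessory median was -0.20 (log2) in Sample 2L, -0.25 in Sample 4L, -0.20 in Sample 5L and -0.06 in Sample 7L. The core median was -0.01, -0.04, -0.01 and 0.12 in the same libraries. Accessory minus core was therefore -0.19, -0.22, -0.19 and -0.17 with LPS, against -0.02, 0.02, 0.04 and -0.02 in saline Samples 1L, 3L, 6L and 8L. The saline values lie around 0 because each gene was centred on its saline mean. The calls above came from the same libraries, so this gap is no separate support for them. Over all tested genes under 1000 bases, noncoding and weakly expressed ones included, the median was -0.03, -0.09, -0.09 and -0.02 in the same LPS libraries. Protein-coding genes of that length at 10 CPM or more were not split by library. Their median log2 change in the fit was -0.13. Sample 7L was shifted upward in both classes relative to the other LPS libraries, while the median over all tested genes was 0.01 in each of Samples 2L, 4L, 5L and 7L.

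**Figure D3:**
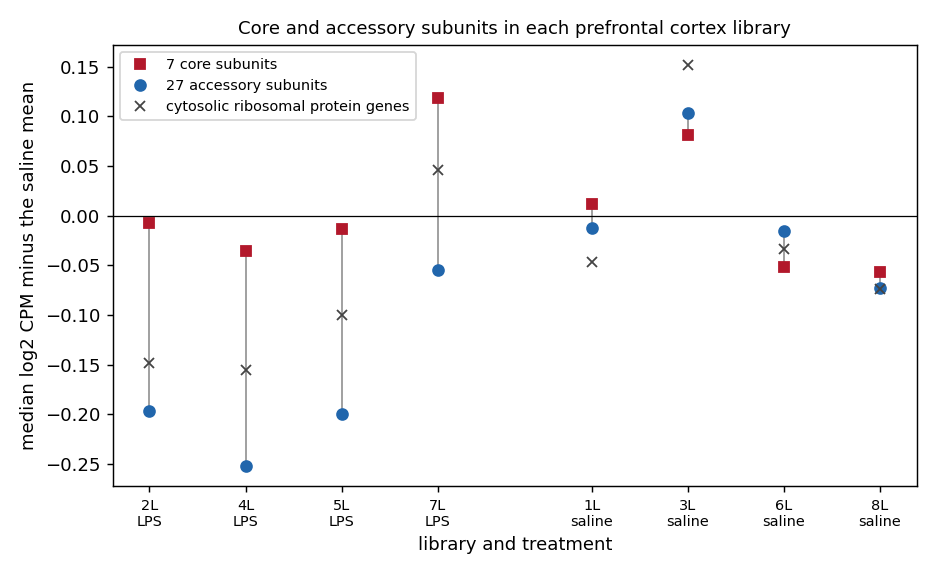
Median log2 CPM, minus the saline mean of each gene, of core subunits (red squares), accessory subunits (blue circles) and cytosolic ribosomal protein genes (crosses) in each prefrontal cortex library, LPS left and saline right. The grey line joins core to accessory: it is long in all 4 LPS libraries (-0.17 to -0.22) and short in the saline libraries (-0.02 to 0.04). Saline values lie around 0 because each gene is centred on its saline mean. Sample 7L as a whole sits higher than the other LPS libraries.

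The count of called members depended on single libraries. The share of all genes lower in each of these fits is not set beside the counts. The swing therefore cannot be read as particular to complex I. Without LPS Sample 7L, 17 members were called lower by edgeR, the same 11 and Ndufa8, Ndufb7, Ndufb8, Ndufb11, Ndufa4 and, among core subunits, Ndufs8. Without LPS Sample 4L, 7 were called, all among the 11. Leaving out any other cortex library gave 8 to 11, and Ndufs8 was also called without saline Sample 8L. Ndufb2, Ndufc1, Ndufa7, Ndufs5, Ndufa3, Ndufa6 and Ndufa1 stayed below the threshold each time, and no member was called higher. Sample 7L also had a low level of striatal marker genes (mean log2 CPM 3.46, against 5.46 to 6.14 in the other LPS libraries and 3.61 to 5.99 with saline); with that marker level as a covariate, 10 of the 11 members remained called.

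Core and accessory subunits also differ in transcript length, and the changes were set beside length. Using the longest of the best-tagged transcripts in GENCODE vM21, the tested accessory subunits had a median of 732 bases and 19 of 27 were under 1000 bases; the core subunits had a median of 1623 bases and 1 of 7 was under 1000 bases. Among protein-coding genes at 10 CPM or more, 32.9% of the 417 genes under 1000 bases were lower after LPS and 9.11% higher, with a median log2 change of -0.13. From 1000 to under 2000 bases 23.5% were lower, with a median of -0.02. The subunits under 1000 bases, with 8 of 20 lower (40%) and a median of -0.18, are to be read against the first of these shares. From 1000 to under 2000 bases, 2 of 6 accessory and 0 of 5 core subunits were lower.

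Across the 34 subunits, log2 change followed transcript length when the shortest tagged transcript was used (Spearman rho 0.71, Pearson r 0.68) and less when the longest was used (rho 0.42, r -0.05). The transcript choice mattered most for Ndufb2, whose tagged transcripts run from 455 to 4371 bases, and Ndufc1, with 315 to 1249 bases: without both, rho was 0.63 with the longest transcript over 32 subunits. These are descriptions across genes, which share libraries and are not independent. Over all 17427 tested genes with a length, rho was 0.05 with the shortest transcript. A fit with a length trend removed from each library called 5 members lower (Ndufb2, Ndufc1, Ndufa7, Ndufs5 and Ndufs4), while 19.7% of all genes were still lower; the median over subunits was then -0.06, and 0 core subunits were called. Ndufs4, at 1698 bases, was the only called member other than Ndufb2 and Ndufc1 above 1000 bases.

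**Figure D4:**
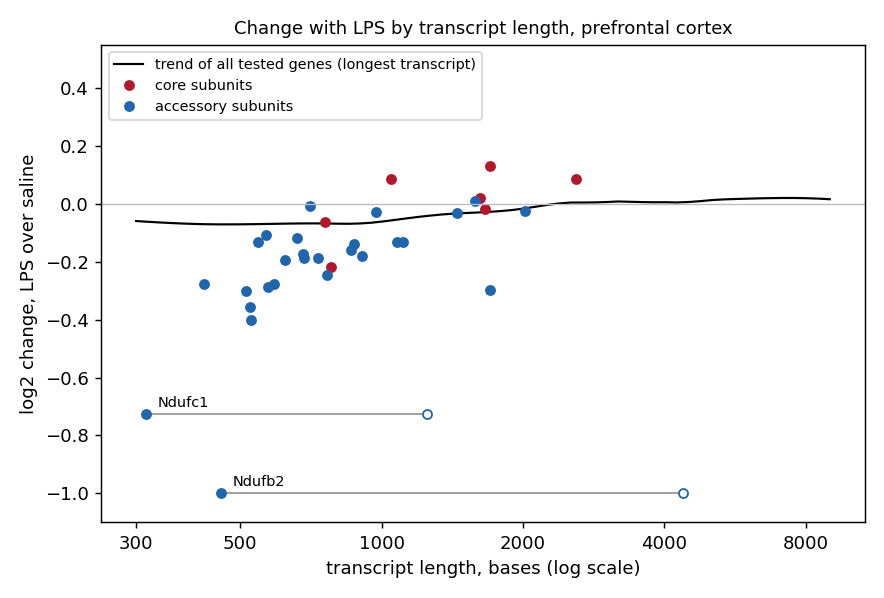
Log2 change after LPS over saline against transcript length (log scale) for core (red) and accessory (blue) subunits in prefrontal cortex. The black line is the trend over all tested genes, placed by their longest tagged transcript. Filled points use the shortest tagged transcript, and open points joined by a grey line show the longest for Ndufb2 (4371 bases) and Ndufc1 (1249 bases). Most points under 1000 bases lie below the trend line. Protein-coding genes under 1000 bases at 10 CPM or more, not drawn, had a median of -0.13.

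The other genes of the pathway were counted from lists of known members, beside 19.7% of all tested genes lower and 21.5% higher. Of the 7 mitochondrially encoded core subunits, mt-Nd5 and mt-Nd1 rose (log2 changes 0.46 and 0.37, edgeR adjusted p = 0.015 and 0.0424) and 0 fell, although the LPS and saline libraries overlapped for all 7. Their summed level was 19630 to 23222 CPM with LPS and 14337 to 23715 CPM with saline. Ndufab1, the acyl carrier subunit outside the symbol rule, fell to 46.5 ± 4.39 CPM with LPS, against 59.9 ± 4.95 CPM with saline (adjusted p = 0.00663, edgeR). Among complex I assembly factors, 9 of 18 fell and 1 rose, with a median log2 change of -0.35. Timmdc1 (-0.94), Acad9 (-0.59) and Ndufaf5 (-0.51) had the smallest p, and Foxred1 was the 1 that rose (0.31).

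Complexes II to V and other mitochondrial genes were read the same way, beside the same 19.7% lower and 21.5% higher. The share lower was 50% for complexes II to V and 20.8% for the matrix and membrane genes. Of 38 tested subunits of complexes II to V, 19 fell and 1 rose, with a median of -0.25; the ATP synthase subunits Atp5e (-0.84), Atp5l (-0.48) and Atp5mpl (-0.50) had the smallest p, and Cox4i1 was listed at 0. Of 24 mitochondrial matrix and membrane genes outside the respiratory chain, 5 fell and 2 rose, with a median of 0.01; Tomm20, an import receptor, rose (0.41), and Pdhb and Fh1, enzymes of pyruvate and fumarate metabolism, fell (-0.42 and -0.37). Of 11 regulators of mitochondrial biogenesis, Esrra fell (-0.33) and Gabpb1, Tfam and Tfb2m rose (0.40, 0.30 and 0.29). Yy1, with 62.8 to 71.2 CPM with LPS and 69.8 to 83.2 CPM with saline, did not pass the test (adjusted p = 0.0555, edgeR). Of 42 tested cytosolic ribosomal protein genes, also short and abundant, 5 fell (11.9%) and 0 rose, with a median of -0.09. Among protein-coding genes under 1000 bases at 10 CPM or more, 32.9% were lower.

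Cell type markers were counted in the same libraries, beside 19.7% of all genes lower and 21.5% higher. Of 10 oligodendrocyte markers, 5 fell and 0 rose, and their summed level was 2626 to 3566 CPM with LPS and 2972 to 3992 CPM with saline. Of 10 microglia markers, 5 fell and 2 rose (411 to 511 CPM with LPS, 511 to 544 CPM with saline), and of 10 astrocyte markers 4 fell and 2 rose (4510 to 5551 CPM with LPS, 5084 to 5362 CPM with saline). Of 10 endothelial markers, 2 fell and 5 rose (233 to 257 CPM with LPS, 202 to 230.4 CPM with saline). Of 11 tested neuron markers, 2 fell and 2 rose (14031 to 15280 CPM with LPS, 12608 to 14365 CPM with saline), with Tubb3 listed at 0. The part of these levels in the changes of the 11 called subunits was not tested.

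After nicotine, no complex I gene passed the test in the hippocampus. Of 35 members tested, 0 were called in either direction by edgeR, DESeq2 or limma-voom, beside 0% of all 18873 genes by edgeR. At an unadjusted p under 0.05, 5 members were lower (Ndufs3, Ndufb6, Ndufa4, Ndufb4 and Ndufs4), or 14.3% of those tested, and 0 were higher; over all genes these shares were 4.46% and 3.89%. The change was negative for 32 of 35 members, and the median over the 33 subunits was -0.11, against 0.00 over all genes. The core and accessory medians were close, at -0.12 and -0.11, and all 7 core subunits were negative. Whether the changes after LPS and after nicotine differ was not tested.

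Ndufs3 had the smallest p among the members, with a lowest, median and highest value of 60.4, 72.7 and 82.2 CPM with nicotine, against 76.3, 85.2 and 90.3 CPM with saline. The groups overlapped in the upper nicotine libraries, and the log2 change was -0.20 ± 0.07 (edgeR adjusted p = 0.555). Ndufb6, a membrane-arm subunit, had 27.3, 32.3 and 39.1 CPM with nicotine, against 33.4, 37.6 and 46.8 CPM with saline (log2 change -0.24 ± 0.10, edgeR adjusted p = 0.565). Most nicotine libraries were below the saline median for it, and the ranges overlapped. On the positive side, Ndufa12 was at 0.07 ± 0.10 and Ndufs6 at 0.03 ± 0.10, both with broad overlap. Ndufb2, the member with the largest fall after LPS, had 17.8, 19.5 and 20.9 CPM with nicotine, against 17.1, 19.5 and 21.5 CPM with saline, a log2 change of -0.01 with an interval of -0.15 to 0.12. Ndufc1 was at -0.21 with an interval of -0.48 to 0.06. In hippocampus, 5 members were too low to test: Ndufa13 and Ndufb4c, listed at 0, and Ndufb8, Ndufa11b and Ndufs6b, at 0 to 3 counts per library.

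In the hippocampus the subunits moved by library. The median over the core subunits, relative to the saline mean, ran from -0.26 to 0.06 in the nicotine libraries and from -0.12 to 0.11 in the saline libraries. For the accessory subunits it ran from -0.25 to 0.10 with nicotine and from -0.18 to 0.29 with saline. Saline Sample 2N was highest, and ribosomal protein genes were highest in it too, at 0.44, whereas nicotine Sample 9N was low for accessory subunits at -0.25 and for ribosomal protein genes at -0.44. Nicotine Sample 8N differed from the rest, with its core subunits at -0.26 and its accessory subunits at -0.05, and its mitochondrially encoded transcripts took 11.6% of counts, against 5.60% to 9.10% in all other hippocampus libraries. Without saline Sample 2N the median over the subunits was -0.06, and without any other library it was between -0.08 and -0.15.

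**Figure D5:**
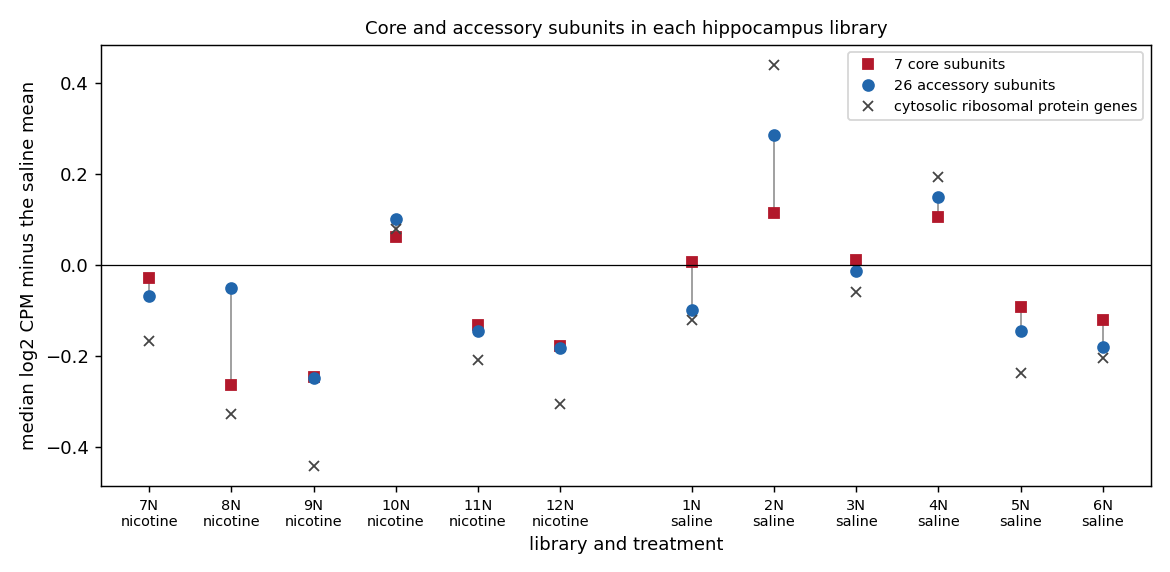
Median log2 CPM, minus the saline mean of each gene, of core subunits (red squares), accessory subunits (blue circles) and cytosolic ribosomal protein genes (crosses) in each hippocampus library, nicotine left and saline right. The groups overlap for both classes: saline Sample 2N is highest (accessory 0.29) and nicotine Sample 9N is among the lowest (accessory -0.25).

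Length and marker levels stood beside this shift as well. Protein-coding genes under 1000 bases at 10 CPM or more had a median change of -0.11 after nicotine, as did the 19 subunits of that length. From 1000 to under 2000 bases the 11 subunits had a median of -0.13, against -0.06 for such genes. With a length trend removed from each library, the median over subunits was -0.04. Across the 33 subunits the change after nicotine did not track length closely (rho 0.16 with the longest transcript and 0.09 with the shortest). Of 43 tested ribosomal protein genes all were negative, with a median of -0.24, and 19 had an unadjusted p under 0.05. Over all tested genes, 4.46% were lower at that threshold. Choroid plexus markers summed to 254 to 3544 CPM in nicotine and 172 to 5729 CPM in saline libraries, and with their level as a covariate 0 members were called and the median over subunits was -0.11. The wider mitochondrial lists gave 0 calls in edgeR. At an unadjusted p under 0.05, 12 of 39 tested subunits of complexes II to V were lower, beside the same 4.46% of all genes.

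Levels were ordered alike in the saline groups of the 2 tissues. Over the 33 subunits tested in both, the Spearman correlation of CPM per kilobase of the longest tagged transcript was 0.86. This value describes genes that share their transcript lengths. The log2 changes after LPS and after nicotine, from separate animals and libraries, had a Spearman correlation of 0.08 across the same subunits.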

How the data were processed

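Whole-number counts per gene were deposited by the authors in a table for each tissue; per the submitters' processing notes the tools were fastp, STAR, featureCounts and DESeq2 with build mm10. Versions, gene annotation and strandedness of counting were not given in the sources used here. Cortex rows carry symbols; hippocampus rows carry Ensembl IDs, matched to symbols for 51933 of 57180 rows. Tests were run on the counts within each table with edgeR 4.0.16 in R 4.3.3 (filterByExpr, TMM factors, quasi-likelihood F-test, Benjamini-Hochberg over all genes tested, threshold 0.05), first tested on simulated data. Levels are TMM-scaled CPM; intervals are 95% intervals from the fit. Alternatives were DESeq2 1.42.0, limma-voom 3.58.1, robust edgeR, other scaling factors and filters, a test against 1.2-fold, a replicate block, a per-library length offset, marker covariates, grouping by title, the 4 libraries with agreeing labels and each library left out. The lowest chi-square per degree of freedom between libraries of a group was 11 in cortex and 11.2 in hippocampus, so none was counted as a repeat of another. Core and accessory classes and the pathway and marker lists are textbook lists; members and lists were chosen with earlier results of these data known. Named by rule were the 8 largest falls, the core subunits, the 3 smallest changes, untested members, Ndufa4, Ndufa4l2, in hippocampus the 2 smallest p in each direction, and up to 3 genes of smallest p per list. The values of 1 core subunit enter the counts and medians but are not reported here. Any further gene was picked with its values in view. The median 95% half-width of a log2 change over all tested genes was 0.29 in cortex and 0.22 in hippocampus. Lengths came from GENCODE vM21, promoter windows from RefSeq.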

Additional observations from a re-analysis of the deposited data

Results flagged for a closer look

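Of 56 groups checked for a library far from the others, 4 were singled out, and chance singles out about 1 in 20. In saline cortex, Sample 3L was the highest by a wide gap for Ndufb3 (81.5 CPM, next 66.4 CPM), Ndufv2 (139 CPM, next 117 CPM) and Ndufb9 (53.2 CPM, next 39.2 CPM). In LPS cortex, Sample 7L was the highest by a wide gap for Ndufs7 (80.4 CPM, next 61.3 CPM).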

How the results depend on the processing

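The 11 members called lower in cortex were the same 11 with DESeq2, limma-voom, robust edgeR, RLE or upper-quartile factors and a filter at 1 CPM. No filter gave 10, the striatal marker covariate 10 and the replicate block 10, of which 9 were shared and Ndufs8 (adjusted p = 0.0429, edgeR) was a core subunit; the replicate block left 0 calls in hippocampus. The count was 2 (Ndufb2 and Ndufc1) against a fold of 1.2, 5 with the length offset, 5 with that offset on the shortest transcript, an alternative added after seeing the data, 5 with the 4 libraries of agreeing labels and 0 grouped by title. With 1 library left out it was 7 to 17. Among these alternatives, the share of all genes lower is given above only for the length offset and the grouping by title. Grouped by title the log2 change was above 0 for Ndufb2 (0.0142), Ndufc1 (0.0276), Ndufa7 (0.0723), Ndufs4 (0.0273), Ndufa2 (0.11), Ndufa6 (0.0245) and Ndufc2 (0.0624). The members called higher in cortex and those called in hippocampus were 0 under all alternatives run. Over the named members, 514 of 580 repeats were counted as the same, 55 lost and 4 gained a call, and 7 changed sign with a call in either fit. Changes of sign without a call in either fit are among the 514. With 1 cortex library left out, for example, the log2 change of Ndufb9 ran from -0.07 to 0.12. Of 22 alternatives in cortex, Ndufc2 lost its call in 12, Ndufa2 in 11, Ndufs4 in 8 and Ndufb3 in 8, beside any change of sign by title. Intervals of the tested complex I subunits in cortex had half-widths of 0.13 to 0.28 (log2). The interval of Ndufa4l2, not a subunit, was wider, at -0.85 to 0.06. The labels do not say that a replicate number marks a shared animal or day: deviations of same-numbered libraries correlated at -0.20 to -0.04 in cortex and at -0.19 to 0.55 in hippocampus, where 3 of 6 pairs were over 0.1, so pairing was not assumed.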
